A study of Mus musculus with 4 samples.

Results

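The Dlk1 Peg10 spots are the capture spots of a mouse brain section in which 6 genes of the hypothalamus, Dlk1, Baiap3, Peg10, Irs4, Arhgap36 and AW551984, were highest together. They were selected on measured values. After spots with fewer than 500 unique molecular identifiers (UMIs, each standing for a captured probe molecule) or 250 detected genes were left out, each spot was scored by the mean over the 6 genes of ln(1 + UMIs per 10000 UMIs of the spot), and the 220 spots with the highest score in each of 4 sections were taken. This gave 880 of 13452 spots. A spot covers a small area of tissue that can hold several cells of different types, so every level below is that of a region and not of a cell. Because the score chose the spots, what distinguishes them from the other 12572 spots is given as a description without a test.

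The sections were coronal sections of the brains of male wild-type C57BL/6J offspring, taken on postnatal day 21 and profiled with Visium-FFPE, a probe-based spatial assay for formalin-fixed, paraffin-embedded tissue. Their mothers received diets with either 2 mg/kg folic acid (FA; the MF group) or 20 mg/kg FA (the HF group) from before mating until the end of lactation, and 2 sections were profiled per diet. Each section is the measurement of its diet, and nothing in the labels ties a replicate number to a litter or slide. The design asks whether maternal FA excess changed expression in the brain of the offspring.

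The hypothalamus is built of small nuclei along the third ventricle, and its neurons release peptides that act on the pituitary, on feeding, on water balance and on arousal. Many of its neurons express imprinted genes, which are read from the maternal or the paternal copy alone. Dlk1 and Peg10 are paternally expressed. Dlk1 encodes a transmembrane protein related to the Notch ligands, and Peg10 derives from a retrotransposon and is best known for its role in the placenta. Irs4 is an X-linked adaptor of the insulin and IGF receptors, Arhgap36, also X-linked, inhibits protein kinase A and activates Gli factors, and Baiap3 belongs to the Munc13 family and acts in the trafficking of dense-core vesicles, which carry peptides.

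In the mm10 (GRCm38) annotation Dlk1 (ENSMUSG00000040856) lies at chr12:109452823-109463336, Peg10 (ENSMUSG00000092035) at chr6:4747306-4760517 and Baiap3 (ENSMUSG00000047507) at chr17:25242659-25256364. Irs4 (ENSMUSG00000054667) lies at chrX:141710998-141725263, Arhgap36 (ENSMUSG00000036198) at chrX:49463945-49500244 and AW551984 (ENSMUSG00000038112) at chr9:39587396-39604403. Sequences upstream of the transcription start are shown for 4 genes, Dlk1 and 3 of the leading genes described further on. These 3, Asb4, Pomc and Magel2, are among those with a match to a motif given below, so they do not stand for the leading genes. The 250 bases before the start are printed 5′ to 3′ on the strand of the gene (all 4 on the plus strand), from RefSeq for GRCm38.p6. Capitals mark a match, on either strand, to CAAGTG, the core bound by NKX2 factors, or to TAATTA, the core bound by many homeodomain factors. The windows are chr12:109452573-109452822 for Dlk1, chr6:5383136-5383385 for Asb4, chr12:3954695-3954944 for Pomc and chr7:62376729-62376978 for Magel2.
Dlk1: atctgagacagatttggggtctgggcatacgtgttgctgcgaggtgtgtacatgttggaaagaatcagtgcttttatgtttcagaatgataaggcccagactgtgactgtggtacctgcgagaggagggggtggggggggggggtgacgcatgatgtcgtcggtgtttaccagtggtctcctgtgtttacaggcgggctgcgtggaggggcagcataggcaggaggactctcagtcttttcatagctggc
Asb4: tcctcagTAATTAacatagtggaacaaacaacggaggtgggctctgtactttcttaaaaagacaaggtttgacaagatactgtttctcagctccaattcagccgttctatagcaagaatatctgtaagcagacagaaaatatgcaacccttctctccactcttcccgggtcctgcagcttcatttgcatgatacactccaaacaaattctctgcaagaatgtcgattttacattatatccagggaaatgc
Pomc: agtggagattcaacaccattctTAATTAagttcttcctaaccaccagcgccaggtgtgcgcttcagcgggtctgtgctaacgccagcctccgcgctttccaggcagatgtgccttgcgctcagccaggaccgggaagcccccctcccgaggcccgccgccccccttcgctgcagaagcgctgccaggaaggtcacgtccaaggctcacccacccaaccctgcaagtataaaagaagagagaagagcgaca
Magel2: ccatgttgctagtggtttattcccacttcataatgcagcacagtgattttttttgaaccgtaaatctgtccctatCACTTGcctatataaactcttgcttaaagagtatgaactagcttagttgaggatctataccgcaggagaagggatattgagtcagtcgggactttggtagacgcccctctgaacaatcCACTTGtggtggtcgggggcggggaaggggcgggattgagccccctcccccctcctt
No match was found in the Dlk1 window, 1 to TAATTA in each of Asb4 and Pomc, and 2 to CAAGTG in Magel2, where they read CACTTG on the printed strand. Another window of Asb4, chr6:5390160-5390409, is not printed and held no match. Of the 6 genes of the score, 5 were in the promoter table with 8 windows, and none of the 8 held either motif. Of the 20 other genes that lead these spots (described further on), 16 were in the table with 19 windows. TAATTA was in 3 of the 19 windows (15.8%), those of Ghrh, Asb4 and Pomc, and CAAGTG in 1 (5.26%), against 4.84% and 11.6% of all 32851 windows. The counts of windows are small, and a match of 6 letters is not a site of binding.

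The chosen spots formed a compact area at the edge of each section, between array rows 47 and 77. Where 4 values follow each other they are in the order MF replicates 1 and 2, HF replicates 1 and 2. The largest group of touching members held 201, 201, 200 and 186 of the 220, and 10 to 12 members per section touched no other member. Of the spots that touched a member, 63.7% to 70.1% were members themselves, against 2.09% to 2.78% of those that touched another spot. The score did not fall off sharply at the edge of the choice. The last member and the first spot outside it scored 1.257 and 1.256, 1.223 and 1.217, 1.157 and 1.155, and 0.813 and 0.812, while the median of all spots was 0.107 to 0.190. Members held a median of 19834.5, 13930.5, 10292 and 13699.5 UMIs, and the other spots 23950.5, 11928.5, 9175 and 11704. Moran's I, a deposited score of how strongly a feature clusters in space, ranked Baiap3 between 6 and 24, Dlk1 between 11 and 82, Peg10 between 57 and 127 and Irs4 between 42 and 411 among all features of a section. When every spot was first thinned to 5000 UMIs, 164 to 178 of the 220 members of a section were chosen again.

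**Figure D1:**
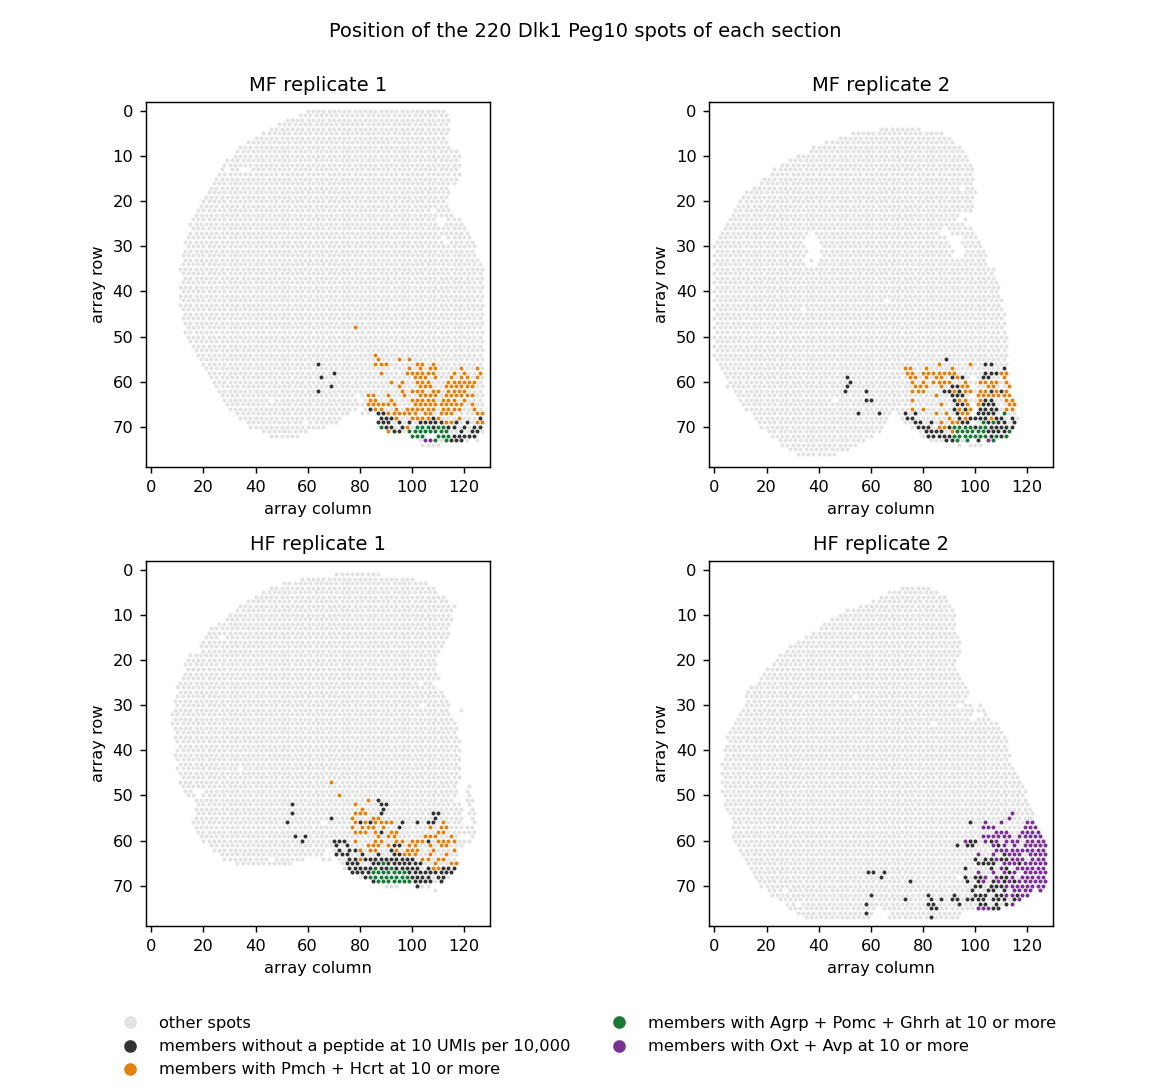
Array position (column and row of the capture array) of the spots of the 4 sections. The 220 Dlk1 Peg10 spots of each section are coloured by the peptide genes they were rich in (at least 10 UMIs per 10000), and the other spots are grey. The members lie together at the lower edge of each section, and HF replicate 2 holds Oxt and Avp spots where the other 3 sections hold Pmch and Hcrt spots.

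HF replicate 2 stood apart from the other 3 sections, so it is described before the results. Levels are CPM, UMIs of a gene per 1000000 UMIs summed over the spots of a section. The member spots of this section held 5147 CPM of Oxt and 3927 of Avp, the peptides of the posterior pituitary made in the paraventricular and supraoptic nuclei, against 1.13 to 33.2 of Oxt and 2.26 to 16.0 of Avp in the other 3. The transcription factors Otp and Sim1, which specify these neurons, were also higher there, Sim1 at 37.3 against 3.24 to 6.03 and Otp at 157 against 90.1 to 110. Trh, the thyrotropin-releasing hormone, stood at 166 against 17.7 to 30.1, Ucn3 at 32.7 against 0 to 0.433, and Zic1, a factor of the septum, preoptic area and thalamus, at 283 against 33.7 to 39.1.

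The peptides of the tuberal hypothalamus were nearly absent from HF replicate 2. Pmch, the melanin-concentrating hormone of the lateral area, stood at 1.46 CPM against 982 to 2276. Hcrt, the precursor of the orexins, had 0 of the 3427663 UMIs of these spots, which allows up to 3, against 398 to 571 CPM in the other sections. Agrp and Pomc, made by the opposed feeding neurons of the arcuate nucleus, had 3 and 2 UMIs in all, against 223 to 254 and 104 to 168 CPM. Hdc, the enzyme that makes histamine, was low too (0.875 against 50.0 to 107), as were the homeodomain factors Nkx2-4 and Bsx, both with 0 UMIs. Of 11768 features, 276 to 336 differed by over 2-fold between the member spots of HF replicate 2 and those of another section, against 28 to 118 among the other 3 sections. For the other spots these counts were 35 to 43 and 2 to 10.

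Summed over fixed lists, the arcuate genes reached 1766, 1579, 1247 and 217 CPM, and the genes of the lateral area 3205, 2210, 1736 and 120. The genes of the paraventricular and supraoptic nuclei ran the other way, at 207, 250, 184 and 9539. The 15 markers fixed for the hypothalamus summed to 2352 to 3897 in 3 sections and 9669 in HF replicate 2, where 2 of the 15 were at 0. In HF replicate 2, Oxt and Avp made up 5147 and 3927 of this sum. The median log2 ratio to other spots of the 13 markers with at least 5 CPM was 2.15 there. The lists, like the members, were chosen with earlier results of these data known, so the sums are not an independent check of the label. The label of a hypothalamic region was kept for every section, with different nuclei in HF replicate 2. The level of the section along the brain and the diet cannot be told apart for this replicate, and many results that rest on it are given with and without it.

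**Figure D2:**
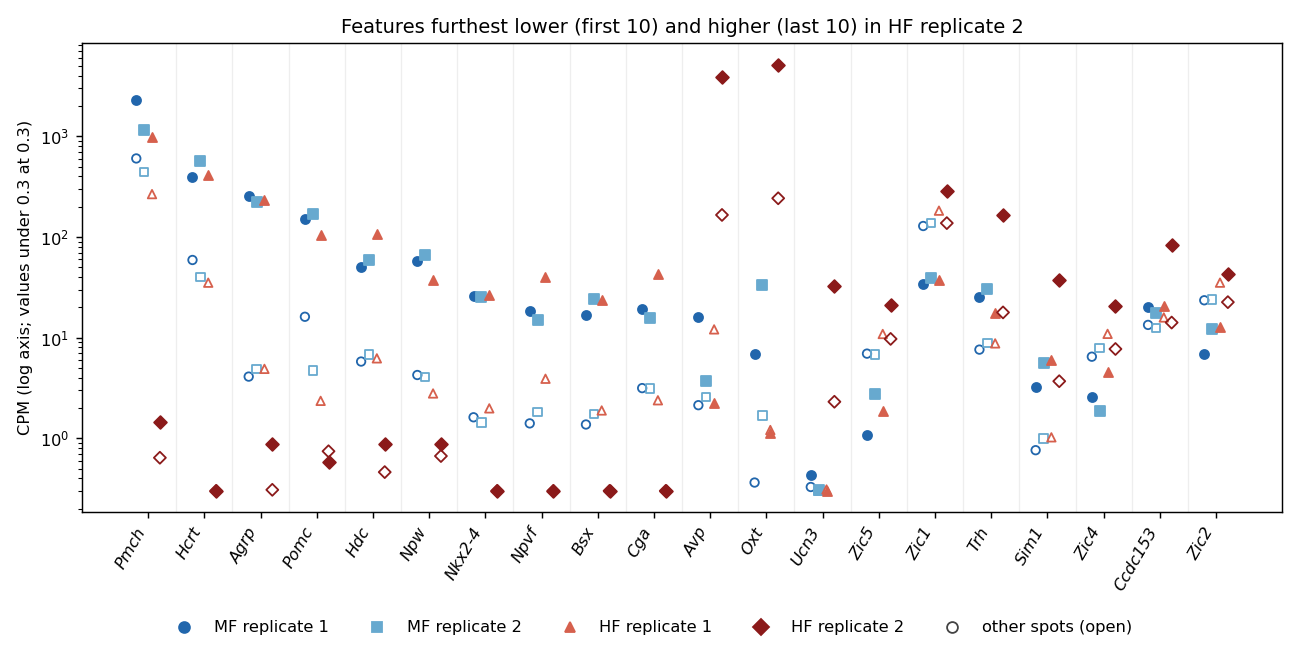
CPM (log axis) of the 10 features furthest lower and the 10 furthest higher in HF replicate 2 than in the mean of the other sections, in the Dlk1 Peg10 spots (filled) and the other spots (open). Agrp stood at 223 to 254 in 3 sections and at 0.875 in HF replicate 2, and Oxt at 1.13 to 33.2 against 5147.

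Dlk1 was carried by these spots to a large extent. Its level was 370, 421, 419 and 318 CPM in members, and 30.5, 34.4, 34.4 and 15.5 in the other spots. The ratio was 12.2-fold in each of the first 3 sections and 20.5-fold in HF replicate 2, and the members, 6.11% to 6.88% of the spots, held 39.7% to 64.3% of all Dlk1 UMIs of a section. Peg10 stood at 432, 437, 395 and 235 in members against 43.7, 47.5, 40.8 and 23.0. The 3 sections other than HF replicate 2 lay within a narrow range for both genes, and HF replicate 2 was the lowest.

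Irs4 had the largest ratio of the 6, a mean log2 ratio of 4.0 over the sections, with 229, 219, 211 and 74.1 CPM in members and 5.09 to 13.1 in the other spots. Arhgap36 stood at 415, 389, 341 and 197 in members and at 14.0 to 33.9 elsewhere. Baiap3 stood at 723, 715, 691 and 490 against 53.3 to 91.7, and AW551984, of which little is known, at 377, 371, 291 and 265 against 28.4 to 46.3. Over the 4 sections the means were 382 ± 48.6 for Dlk1, 375 ± 94.8 for Peg10, 655 ± 110 for Baiap3, 183 ± 73.1 for Irs4, 335 ± 97.4 for Arhgap36 and 326 ± 56.3 for AW551984 (SD, n = 4 sections). All 6 were lowest in HF replicate 2. When 1 score gene was left out and the other 5 chose the 220 spots, 192 to 208 of a section's members were chosen again. With such spots Dlk1 stood at 350, 378, 371 and 292, Peg10 at 398, 408, 356 and 211, and Irs4 at 212, 203, 186 and 66.8. The 6 genes were fixed together with earlier results of these data known, so this is a description and not a check of the choice.

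Within the members, levels varied from spot to spot. Baiap3 was found in every member, at 0.608 to 19.7 UMIs per 10000, whereas Dlk1 ran from 0 to a highest spot of 10.4, 10.1, 14.7 and 21.2 around medians of 3.26, 3.97, 3.80 and 2.11. In HF replicate 2 the 22 members richest in Dlk1 held 45.0% of its member UMIs, against 26.0% to 27.8% in the other sections. Dlk1 was thus lower in the median member and more concentrated in a few spots there.

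By rank of the score, Dlk1 went from 443, 474, 500 and 405 CPM in the 110 highest spots of each section to 280, 360, 335 and 210 in the next 110. In ranks 221 to 440, outside the choice, it stood at 204, 213, 237 and 76.9, and beyond rank 440 at 11.1 to 21.5. Dlk1 is in the score and falls with its rank by construction, so these values only describe how gradual the edge was. Next to the edge, ranks 211 to 220 held 343, 331, 323 and 150 of Dlk1 and ranks 221 to 230 held 172, 307, 283 and 123. Agrp, which the score did not use, was steeper in 3 sections, with 408, 395 and 387 in the first 110 spots and 61.8, 29.5 and 70.6 in the next 110. Otp in HF replicate 2 was flat within the choice, 161 and 152, and 59.4 in ranks 221 to 440.

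**Figure D3:**
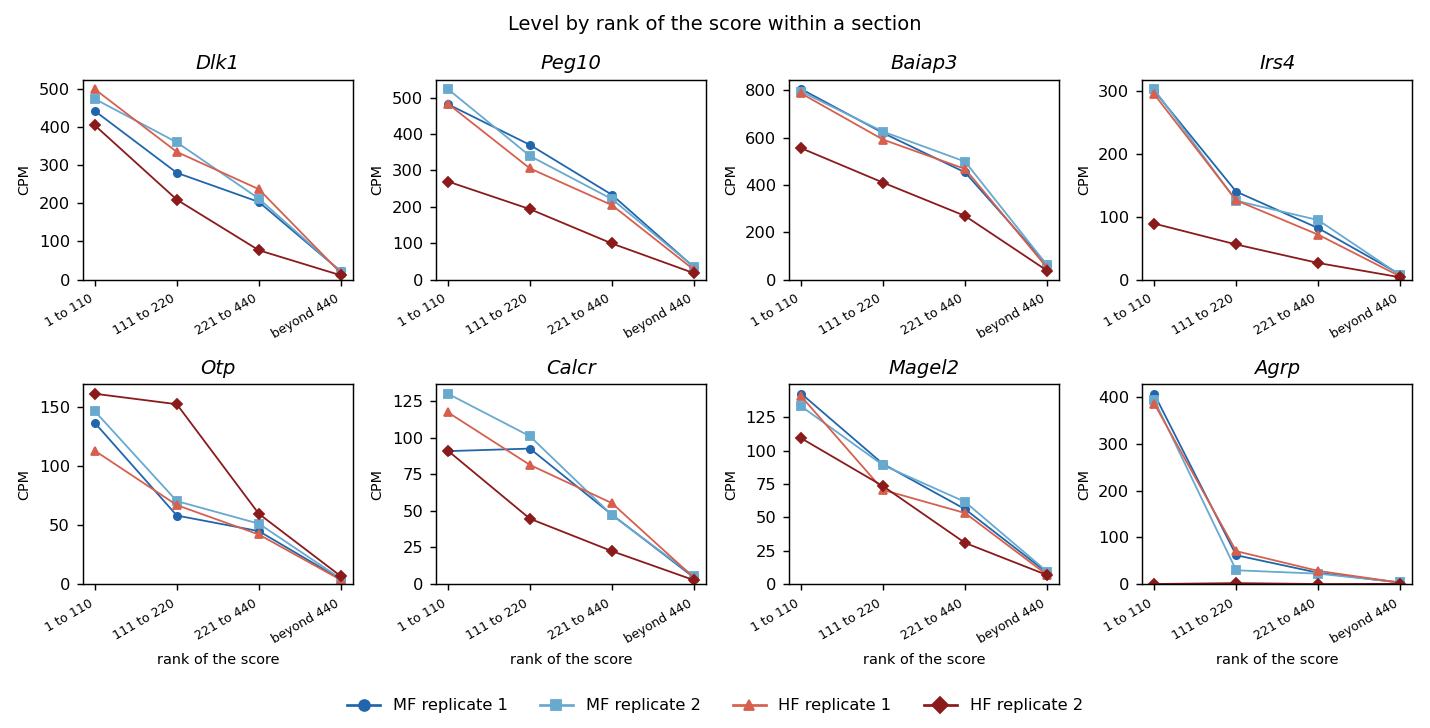
CPM of 8 genes (linear axes from 0) in spots grouped by rank of the score within a section. The first 4 genes are in the score and fall with its rank by construction. Otp, Calcr, Magel2 and Agrp are not, and were also lower at lower ranks, except that Agrp was near 0 at every rank in HF replicate 2 and Calcr in MF replicate 1 was 90.7 and 92.5 in the first 2 groups.

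Beyond the score, 20 other features had the highest mean log2 ratio of members to other spots, among those with a mean of at least 20 CPM in members (pseudocount 1 CPM). Agrp (ENSMUSG00000005705, chr8:105566698-105637393) led with 4.18 through 3 of the sections. Otp (ENSMUSG00000021685, chr13:94875602-94885130) followed with 3.74, at 101, 110, 90.1 and 157 in members against 6.03 to 10.2 in other spots, and its ratio was alike in all sections (3.60 to 3.87). Other transcription factors and regulators among them were Hmx3, a homeobox factor, at 31.6, 33.5, 35.4 and 2.04, and Magel2 (see its start region above), an imprinted regulator of protein trafficking lost in Prader-Willi syndrome, at 119, 113, 106 and 93.4. Magel2 varied little between sections (108 ± 11.1, SD, n = 4 sections), whereas Hmx3 was low in HF replicate 2 like the tuberal genes.

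Peptides formed a second group. Ghrh, the growth hormone-releasing hormone, stood at 105, 102, 46.4 and 5.54 CPM in members and at 0.947 to 4.06 in other spots. Gal, the peptide galanin, stood at 205, 197, 118 and 63.3 against 10.7 to 16.8. Pomc stood at 151, 168 and 104 in 3 sections against 2.35 to 16.1 elsewhere, and in HF replicate 2 it was no higher in members than in other spots (0.584 and 0.742). For Ghrh and Gal both HF sections lay below both MF sections.

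Receptors and channels made up much of the rest. Calcr, the calcitonin receptor, stood at 91.5, 116, 99.5 and 70.3 against 3.99 to 8.35, Gpr101, an orphan receptor of the hypothalamus, at 227, 238, 181 and 175 against 21.1 to 33.9, and Pgr15l, another orphan receptor, at 93.6, 99.7, 68.6 and 20.1 against 2.23 to 8.04. Gabrq, the theta subunit of the GABA-A receptor, stood at 193, 169, 121 and 61.3 against 7.93 to 16.6. Scn9a, a voltage-gated sodium channel, was the steadiest of the 20, at 57.1, 59.1, 56.2 and 49.3 (55.4 ± 4.24, SD, n = 4 sections). All 5 were lowest in HF replicate 2 and higher in members than in other spots in each section.

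Among enzymes and adaptors, Gpx3, a secreted glutathione peroxidase, stood at 372, 430, 376 and 164 against 22.2 to 47.3, and Asb4, a substrate receptor of a ubiquitin ligase, at 185, 212, 171 and 25.1 against 2.74 to 13.9. Ppp1r17, an inhibitor of protein phosphatases, and Esyt3, a membrane-tethering protein, had ratios of 3.50 and 3.13, Zim1, an imprinted zinc finger gene, 2.69, Gm45194 3.55 and Vwa5b1 2.80. Of the 20, 4 lie on the X chromosome (Gabrq, Gm45194, Gpr101 and Pgr15l), and 18 of the leading 100 do (18%), against 3.47% of the 8727 features at this level. In addition 2 of the 6 score genes are X-linked.

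**Figure D4:**
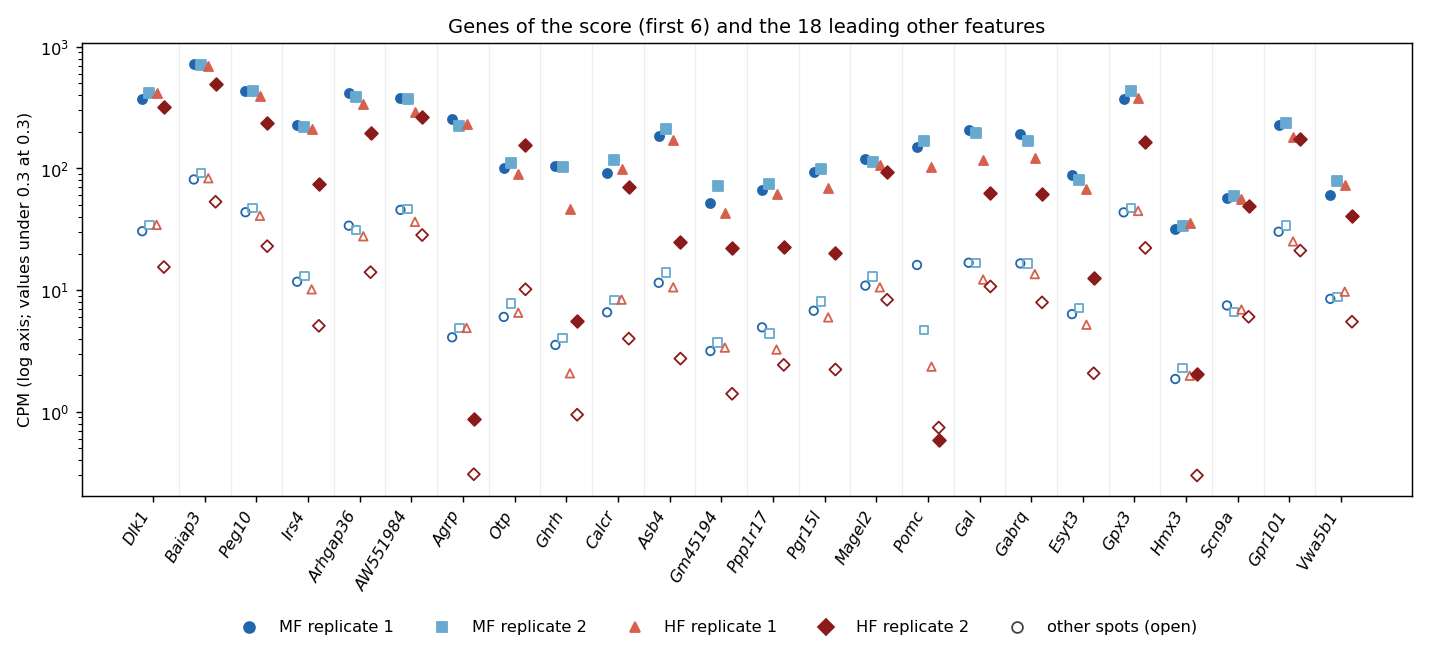
CPM (log axis) of the 6 score genes and the 18 leading other features in the Dlk1 Peg10 spots (filled) and the other spots (open), one marker per section. Filled markers lie above the open markers of the same section for all but Pomc in HF replicate 2 (0.584 against 0.742).

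At the other end, the feature with the lowest ratio was Ttr, the thyroid hormone carrier of the choroid plexus, at 364, 281, 222 and 655 in members against 2408 to 3978 in other spots. Robo3, an axon guidance receptor, stood at 2.46 to 10.5 against 32.8 to 37.5, and Adra1d, an adrenergic receptor, at 5.84 to 16.3 against 58.3 to 71.7. Gm5741 (1.13 to 5.83 against 23.0 to 34.6) and Gm11549 (5.62 to 9.63 against 36.3 to 44.9) completed the 5. In all of them the members lay below the other spots in every section.

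As a list, imprinted genes were mostly higher in these spots. Of 47 imprinted genes with at least 5 CPM, 35 (74.5%) were higher in members than in other spots in all 4 sections and 4 were lower in all 4, with a median log2 ratio of 0.53. Of all 11709 features at this level, 5019 (42.9%) were higher and 2891 (24.7%) lower in all 4 sections, with a median of 0.10. The list contains Dlk1 and Peg10, which chose the spots. The summed level of the list was 17017, 17308, 16949 and 15795 CPM in members and 7779 to 8141 in other spots, so it was about as high in HF replicate 2 as in the other sections. Nnat, a paternally expressed proteolipid, stood at 1693, 1973, 2142 and 1468 against 378 to 479, Nap1l5, a nucleosome assembly family member, at 2975, 2928, 2852 and 3048 against 861 to 914, Peg3, a zinc finger protein, at 1159, 1039, 987 and 934 against 349 to 402, and Gnas, the stimulatory G protein locus, at 3073, 3088, 2922 and 3232 against 1812 to 1931. Nap1l5 and Gnas differed little between the 4 sections.

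Hypothalamic transcription factors were higher in all sections for 19 of 29 genes and lower for 4 (median 1.08). Nkx2-1, which patterns the ventral hypothalamus, stood at 53.2, 46.8, 45.2 and 3.79, and Six3 at 67.7, 63.7, 62.2 and 134, so that these factors split HF replicate 2 from the rest in opposite directions. Zfhx3 stood at 82.8, 90.7, 94.6 and 147, and Bcl11a, a factor of cortex and striatum, was lower in members (60.3 to 75 against 117 to 146). Of 30 neuropeptides, 14 (46.7%) were higher and 5 (16.7%) lower in all sections (median 1.03). The share higher was near the 42.9% of all 11709 features. Sst, somatostatin, was found in members of every section, at 718, 991, 892 and 613 against 428 to 501, while Npy stood at 577, 471 and 429 in 3 sections and 60.1 in HF replicate 2.

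The machinery that makes and stores peptides was described by 28 genes, of which 18 (64.3%) were higher and 9 (32.1%) lower in all sections (median 0.61). Of all 11709 features, 42.9% were higher and 24.7% lower in all sections, so both shares were above those of all features. Resp18, a protein of the regulated secretory pathway, had a mean log2 ratio of 2.28, at 1255, 1105, 959 and 913 against 193 to 237. Scg2, a granin from which peptides are cut, had 1.63, and Pcsk1n, an inhibitor of the prohormone convertase, 0.84. Cpe, the carboxypeptidase that trims peptides, was lower in members (−0.23). Hormone and peptide receptors were higher in all sections for 27 of 46 genes (median 0.47), with Gpr165 at 2.30, Oprl1, the nociceptin receptor, at 1.12 and Adcyap1r1, the PACAP receptor, at 0.92, while Thra, a thyroid hormone receptor, was at −0.11.

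Of 13 genes of transmitter identity, 8 (61.5%) were higher and 2 (15.4%) lower in all sections, against 42.9% and 24.7% of all 11709 features. Gad2, which makes GABA, stood at 423, 464, 512 and 600 in members against 237 to 306, and Slc6a11, a GABA transporter, at 914, 1011, 1137 and 760 against 334 to 511. Slc17a7, the vesicular glutamate transporter of cortex, stood at 342 to 440 against 1821 to 1996, whereas Slc17a6, its counterpart in hypothalamus and thalamus, differed little (mean log2 ratio 0.04). Immediate early genes ran the other way, with 3 of 28 higher and 19 lower in all sections (median −0.60). Homer1 stood at 63.8 to 89.3 in members against 156 to 191.

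The pathways that the score genes belong to were read from 3 lists, each of which includes its score gene. Of all 11709 features, 42.9% were higher and 24.7% lower in all sections. In the Notch list 12 of 22 genes were higher and 3 lower in all sections (median 0.22), with Dner, a neuronal Notch ligand, at a log2 ratio of 0.63 and Dlk2, the paralog of Dlk1, at −0.02. In the insulin and IGF list 7 of 26 were higher and 12 lower (median −0.18), with Grb10, an imprinted adaptor that binds these receptors, at 229, 219, 192 and 203 against 62.8 to 67.2. In the hedgehog and protein kinase A list 12 of 21 were higher and 4 lower (median 0.29), with the catalytic subunit Prkacb at 0.59. Of 28 genes of folate and one-carbon metabolism, the pathway that the diet feeds, 13 (46.4%) were higher and 5 lower in all sections (median 0.17). The share higher was near the 42.9% of all 11709 features. Ahcyl1, an enzyme-like relative of the adenosylhomocysteinase, stood at 591 to 699 in members against 669 to 712.

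Markers of other cell types were compared between members and other spots as well. Of all 11709 features with at least 5 CPM, 42.9% were higher and 24.7% lower in all sections. Myelin genes were lower in all sections for 23 of 24 (median −0.97), with Mbp, a myelin protein, at 4000 to 5185 against 8126 to 10060. Astrocyte markers were higher for 8 of 14 and lower for 3, with Agt, angiotensinogen, at 416, 347, 375 and 380 against 144 to 165. Their ratios ran to both sides, with Slc1a2 at a mean log2 ratio of −0.72. Summed over the list, levels were close, at 3507, 3510, 4008 and 3328 in members against 3677, 3746, 3837 and 3438. Ependymal and tanycyte markers, of cells that line the ventricle, were higher for 7 of 15 (46.7%) and lower for 3 (20.0%; median 0.98). These shares were near those of all features. None of 12 microglial and 13 vessel markers was higher in all sections, and 3 and 5 were lower. Cortex markers were lower for 10 of 12, thalamus markers for 9 of 12, striatum markers for 8 of 11, habenula markers for 4 of 7 and hippocampus markers for 5 of 9, and choroid plexus markers for 4 of 6. The part of these cell types in the levels above was not tested.

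Spots rich in a peptide gene divided the members. With at least 10 UMIs per 10000 of Agrp, Pomc and Ghrh together as the criterion, MF replicates 1 and 2 and HF replicate 1 held 27, 30 and 25 such spots, and 24, 29 and 25 of them were members although the score used none of the 3 genes. Spots as rich in Pmch and Hcrt together were more numerous, 639, 257 and 221, and only 149, 93 and 86 of them were members, which was 67.7%, 42.3% and 39.1% of the members. HF replicate 2 had none of either kind. It had 335 spots as rich in Oxt and Avp together, of which 137 were members (62.3% of its members), against 2, 2 and 1 such spots in the other sections. Members rich in none of these peptides numbered 47, 98, 109 and 83. In MF replicates 1 and 2 and HF replicate 1 the median member held 16.9, 7.34 and 4.88 UMIs of Pmch per 10000. The other spots of these sections stood at 602, 442 and 266 CPM of Pmch. In MF replicate 1 the criterion thus lay under the median member, and the counts of Pmch and Hcrt spots also follow the Pmch level of the section.

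HF and MF were then compared within the member spots, with UMIs summed per section and tested by edgeR's quasi-likelihood test over 12607 features. The 6 score genes were all lower in HF than in MF, with a median log2 ratio of −0.45 that was −0.13 without HF replicate 2, where Dlk1 was slightly higher in HF (0.06). No p is given for any of them because they chose the spots. Of all 12607 features, a total that includes the score genes, none was called at an adjusted p under 0.05 and 1.2-fold (0.0%), and 801 (6.35%; 443 higher and 358 lower in HF) had an unadjusted p under 0.05. The other spots gave 0 calls of 14870 features (0.0%) and 988 at an unadjusted p under 0.05 (6.64%). The difference of the HF to MF ratio between members and other spots gave 0 of 14685 (0.0%) and 721 (4.91%). In 4659 of the 12607 features (37.0%) the 2 HF sections did not overlap the 2 MF sections.

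Without HF replicate 2, 121 of 12809 features (0.945%) were called, with the remaining HF section assumed to vary like the MF sections. Without HF replicate 1, 818 of 12911 (6.34%) were called. Of the 121 and the 818, 44 were the same features (36.4% and 5.38% of each list), and only 24 of the 44 had the same direction in both, 6 higher and 18 lower. The calls thus depended on which HF section was kept.

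The 10 features with the smallest unadjusted p whose sections did not overlap are given as values, since their adjusted p in edgeR's test was 0.773 each. Btaf1 (ENSMUSG00000040565, chr19:36926079-37012752), a factor that acts on the TATA-binding protein, stood at 64.0 and 65.8 CPM in MF and 31.3 and 32.4 in HF, a log2 fold change of −1.03 (SE 0.14), and it had nearly the same ratio in the other spots (−0.91). Mt2, a metallothionein, stood at 565 and 485 in MF and 366 and 299 in HF (−0.67, and −0.71 in the other spots). For these 2 genes the member spots thus did not stand apart from the rest of the section. Both were called with either HF section left out.

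Grp, the gastrin-releasing peptide, stood at 27.5 and 36.9 in MF and 13.9 and 13.7 in HF (−1.21, SE 0.22), and in the other spots the HF sections lay on either side of MF (0.02). The difference between members and other spots was −1.17, with an unadjusted p of 5.4e-04 and an adjusted p of 0.788 in edgeR's test. Gal was lower in HF by a log2 fold change of −1.18 (SE 0.23), and by −0.80 without HF replicate 2. Amigo2 (ENSMUSG00000048218, chr15:97244125-97247287), an adhesion molecule, stood at 137 and 110 in MF and 74.6 and 43.8 in HF (−1.09, against −0.12 in the other spots). Without HF replicate 2, Grp and Amigo2 stood at −1.20 and −0.76. Without HF replicate 1, Grp, Gal and Amigo2 stood at −1.21, −1.67 and −1.51. The part of the section level in these 3 differences was not tested.

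Of the features higher in HF, Etnppl, an astrocyte enzyme, stood at 34.4 and 29.2 in MF and 54.3 and 87.2 in HF (1.15), Igfbp5, which binds insulin-like growth factors, at 136 and 138 against 188 and 224 (0.59, SE 0.12), and Ccdc190 at 20.1 and 22.5 against 35.1 and 46.4 (0.94). Tmem212, a gene of ciliated cells, stood at 8.00 and 15.1 against 25.6 and 54.0 (1.85). Tctex1d4, a dynein light chain family member, stood at 1.08 and 1.23 against 5.28 and 7.88 (2.50), from 5, 4, 14 and 27 UMIs. In these 5 HF replicate 2 was the highest section. Without HF replicate 2 the log2 fold changes of all 5 were smaller. They were 0.73 for Etnppl, 0.44 for Igfbp5, 0.71 for Ccdc190, 1.19 for Tmem212 and 2.15 for Tctex1d4. Of 15 markers of ependyma and tanycytes, a list that holds Tmem212, 7 were higher and 8 lower in HF (median −0.13; 4 higher and 1 lower at an unadjusted p under 0.05), and 10 were higher without HF replicate 2 (median 0.14).

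**Figure D5:**
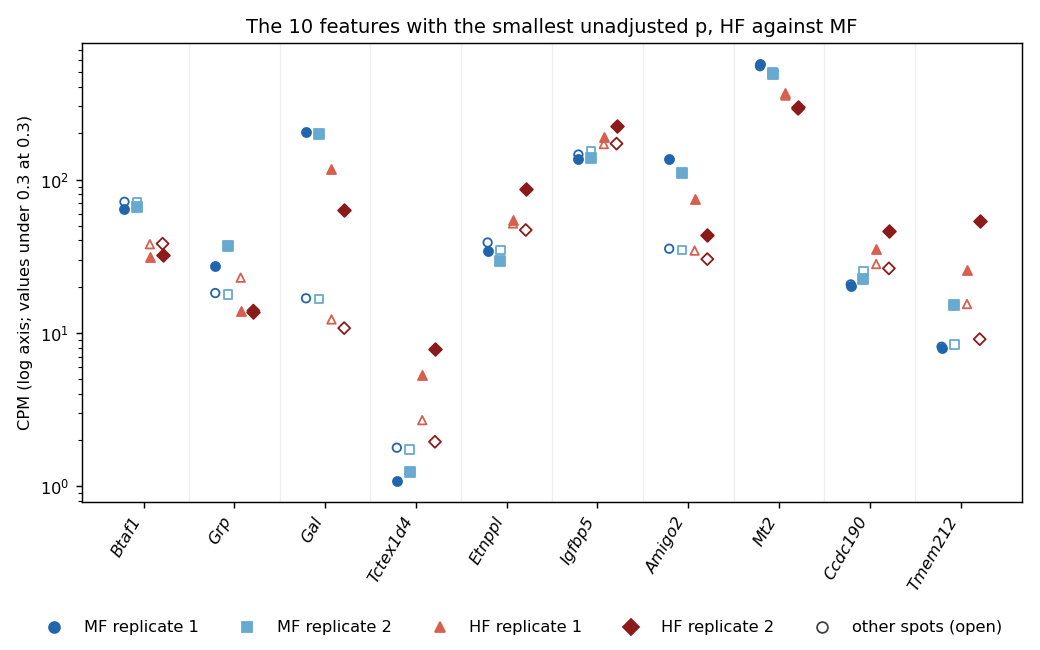
CPM (log axis) of the 10 features with the smallest unadjusted p between HF and MF, in the Dlk1 Peg10 spots (filled) and the other spots (open) of each section. Btaf1 and Mt2 were lower in HF in both kinds of spot, while for Grp, Amigo2 and Tctex1d4 the sections differed more in the member spots.

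Imprinted genes were mostly lower in HF, 37 of 50 tested, a list that holds Dlk1 and Peg10, which chose the spots and were lower too. The median log2 ratio was small, −0.07 with and without HF replicate 2 and −0.17 without HF replicate 1. Of all 12607 features 6289 were lower, with a median of 0.00036. Outside the score, only Rtl1, a retrotransposon-derived gene near Dlk1, had an unadjusted p under 0.05 among the imprinted genes (−0.62). Magel2 stood at −0.23 and Nap1l5 at −0.01. Neuropeptides were higher for 14 and lower for 18 of 32 (median −0.45), with an unadjusted p under 0.05 for 3 and 8. The 3 higher were Avp, Oxt and Trh, and without HF replicate 2 all 3 were lower in HF (−2.25, −4.01 and −0.65). Genes of the arcuate nucleus were lower in HF for 8 of 8, with a median of −1.20, and −0.59 without HF replicate 2. Among them Ghrh was at −2.09 and −1.18, Pomc at −1.70 and −0.64, Cartpt, which encodes the CART peptide, at −1.28 and −0.61, and Agrp at −1.10 and −0.07. Without HF replicate 2, Ghrh, Pomc, Tac2 and Cartpt were called and Agrp was not (adjusted p = 0.895 in edgeR's test).

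Across the 7 genes of the lateral area the median was −1.26, and −0.46 without HF replicate 2, where Pmch was called (−0.83) and Hcrt was not (−0.25). Pmch varied between the MF sections as well, 2276 and 1161, with HF replicate 1 at 982. In the same comparison without HF replicate 2, genes of other nuclei were higher in HF replicate 1, among them Npvf, the RFamide peptide gene of the dorsomedial nucleus (18.2, 15.1 and 40.0), and Hdc (50.0, 59.1 and 107). Ptgds, the prostaglandin D synthase of the meninges, had the smallest p there (344, 241 and 732) and is named after its values were seen, like Col1a1, a collagen of the meninges (28.8, 38.1 and 65.2). The part of the section level and of meningeal tissue in these differences was not tested.

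Immediate early genes were higher in HF for 21 of 29 genes in the members (median 0.30, and 0.33 without HF replicate 2), with an unadjusted p under 0.05 for 9 higher and 1 lower. Egr1 stood at 20.3 and 41.2 in MF and 55.0 and 129 in HF (1.63), Dusp1 at 10.4 and 12.6 against 22.2 and 21.9 (0.94), and Nr4a1 at 22.1 and 22.1 against 34.3 and 32.7 (0.59). In the other spots 28 of 30 were higher, with a median of 0.39, so the direction was not that of the member spots alone. Receptors were lower in HF for 33 of 53 (median −0.15, −0.02 without HF replicate 2). Esr1, the estrogen receptor alpha, stood at 58.2 and 50.1 against 38.8 and 24.8, Gpr101 at −0.40, Gpr165 at −0.53 and Ghr, the growth hormone receptor, at −0.58, all without a call.

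Genes of folate and one-carbon metabolism showed no common direction, with 13 higher and 17 lower in HF of 30 (median −0.06). Only Mthfd2l, a mitochondrial folate dehydrogenase, had an unadjusted p under 0.05 (−0.43). The insulin and IGF list (27 genes) had a median of 0.07, the Notch list (23) −0.05 and the hedgehog and protein kinase A list (22) 0.05. The last 2 medians changed sign without HF replicate 2 (0.06 and −0.02). Each of these lists includes its score gene. Genes of peptide processing were lower in HF for 19 of 28, with a median of −0.13, and of −0.09 and −0.15 without HF replicate 2 and without HF replicate 1. Myelin genes were higher in HF in the members for 17 of 24 (median 0.11) and for 3 of 24 in the other spots (−0.23). The difference between the 2 kinds of spot had a median of 0.32. Its unadjusted p was under 0.05 for 20 of the 24 genes, against 4.91% of all 14685 features, and none was called. Myelin genes can vary together, so the 20 are not independent results. In the members alone 2 of the 24 had an unadjusted p under 0.05, and 10 of the 24 in the other spots. Without HF replicate 2 the median in the members was 0.08. The difference and the median in the other spots are given with HF replicate 2 only. The part of the section level in this difference was not tested. In bulk sums of this kind, fewer cells of a type and less RNA per cell cannot be told apart.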

How the data were processed

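Visium-FFPE sections of 4 brains were analysed. Space Ranger was run by the authors on the probe reads against mm10 (GRCm38), and the deposited matrices hold its unnormalised UMI counts of 19465 features by spot, 1 section per matrix. They also deposited the Space Ranger score of spatial clustering (Moran's I) of each feature. Seurat is named in the submitters' processing notes. Spot barcodes mark array positions and recur in every section.

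Spots with at least 500 UMIs and 250 genes were kept (3598, 3314, 3197 and 3343 in MF replicates 1 and 2 and HF replicates 1 and 2), and 220 per section were chosen by the score of 6 genes. Doublet callers were not run on spots. The members held 4623702, 3250944, 2652538 and 3427663 UMIs. Levels are CPM of the summed spots. No spot under tissue was assigned to a cell type, and no clusters were made. The members and the 34 gene lists were chosen with earlier results of these data known.

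HF was compared with MF on the sums per section, because spots of 1 section are not replicates. edgeR 4.0.16 (R 4.3.3) fitted TMM-normalised counts with glmQLFit and glmQLFTest over features passing filterByExpr, adjusted by Benjamini-Hochberg, and called a feature at an adjusted p under 0.05 and 1.2-fold. The ratio in members was compared with that in other spots by the interaction term with section as a block. The labels do not say that replicates came from separate litters, so p-values measure the spread between these sections. DESeq2 1.42.0, other filters, normalizations, numbers of spots, thinning to 5000 UMIs and leaving out each section were tried. The fits were tested on simulated counts.

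Named features were the score genes, the 20 with the highest and the 5 with the lowest ratio to other spots, the list members with the highest level in the members and those called, the 10 with the smallest unadjusted p whose sections did not overlap, and the 10 furthest higher and lower in HF replicate 2. Other list members and a few pathway genes were added after their values were seen. Some named features are not reported here. Coordinates are those of GENCODE for GRCm38. Python 3.11.15, NumPy 2.4.6, SciPy 1.17.1, pandas 2.3.3 and matplotlib 3.10.9 were used.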

Additional observations from a re-analysis of the deposited data

How the results depend on the processing

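Between HF and MF, the count of 0 called features in the Dlk1 Peg10 spots was unchanged with DESeq2, with library size alone, with spots thinned to 5000 UMIs, with 110 or 330 spots per section, with members chosen on thinned spots and with members that touched at least 2 others. It was 172 without the filter on low counts and 1130 (186 higher, 944 lower) in a rank test over 440 and 440 single spots, which treats spots of 1 section as replicates. Leaving out a section gave 0 to 818 (818 without HF replicate 1, 121 without HF replicate 2). For the other spots the count went from 0 to 14 with DESeq2, 7 without the filter and 0 to 1206 leaving out a section (1206 without HF replicate 1, 961 without HF replicate 2, 2 without MF replicate 2). For the difference between both kinds of spot it went from 0 to 1 with DESeq2, 50 without the filter and 0 to 213 leaving out a section (213 without HF replicate 1, 17 without HF replicate 2). The cause of these changes was not tested.

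Same-numbered sections did not deviate together (r = −0.0273 in the members and −0.140 in the other spots). With 2 sections per diet, and HF replicate 2 apart from the rest, this cannot show whether the numbers pair the sections. With the replicate block, 0 features were called in the members, 2 in the other spots and 12 for the difference. With the numbers crossed, a pairing chosen after seeing the data, 0 and 15 were called.

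Of the HF to MF ratios of named genes under each alternative, 112 kept their direction and side of the threshold, 37 passed the threshold in addition and 0 reversed. The genes of these HF to MF ratios were chosen for a small unadjusted p and for sections that did not overlap. Leaving out a section could thus hardly reverse them, and passing the threshold with a section left out is no independent support. The rank test over single spots is among the alternatives. Of the ratios of members to other spots, 218 moved by less than the spread between sections and 60 by more. The 1 that reversed was that of Pomc in HF replicate 2 alone (−0.14), which rests on 2 UMIs in the members. With 2 sections per diet, small differences were not detectable. Some large ones were not called in the members either. Tctex1d4, with only 5, 4, 14 and 27 UMIs, had a log2 fold change of 2.50. Tmem212, with 37, 49, 68 and 185 UMIs, had 1.85. The adjusted p of each was 0.773 in edgeR's test. The lack of calls thus does not show that differences were absent.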
